A study of Rattus norvegicus with 20 samples.

Results

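The major histocompatibility complex of the rat, called RT1, lies in the proximal part of chromosome 20, and the interval from 1 to 6 megabases of that chromosome in build rn4 is described here. All probes of a CpG island array that start in this interval were taken, which gave 786 of the 93024 probes of the array and 29.8% of the 2635 probes of chromosome 20. The interval was chosen by position, so its values did not decide which probes belong to it, but earlier results of these data were known by then. After the filter on dim probes 776 probes were left. They formed 144 runs of probes that start at most 500 bases apart, and the 110 runs with at least 3 probes, 721 probes in all, are the units described.

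The series holds 4 normal mammary glands and 16 mammary carcinomas, 1 array each, from female first-generation hybrids of Sprague-Dawley and Copenhagen rats. The carcinomas are labelled as induced by radiation, and the labels give whole-body gamma rays of 4 Gy at 0.5 Gy per minute and 7 weeks of age as the treatment. Whether the normal glands came from untreated or irradiated rats, and at what age tissue was taken, was not stated in the labels. The labels number the samples and name no animals, so the p-values measure the spread between these samples. Carcinomas 7 and 8 carry descriptions whose sample codes do not match their scanner files, and they were analysed as deposited. On every array, DNA bound by a methyl-CpG-binding domain protein carried Cy5, and Cy3 marked the input DNA. The log2 ratio of the Cy5 to the Cy3 signal, with the median of the array set to 0, is called the enrichment of a run. The log2 of the Cy3 signal, with the median of the array set to 0, is called its input. Both are relative to the same array, so a shift shared by all probes cannot be seen.

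As background, the major histocompatibility complex encodes the cell surface molecules that show peptides to T cells. Class I genes of the rat include RT1-A and the RT1-CE and RT1-M families. Class I molecules such as RT1-A present peptides from inside nearly all cells, and class II molecules (RT1-B and RT1-D) present peptides taken up by specialised cells. Psmb8 and Psmb9, parts of the proteasome, and the transporter of Tap1 and Tap2 supply class I peptides, and the class III stretch holds complement genes and the genes of tumour necrosis factor and the lymphotoxins. The complex is among the most variable parts of mammalian genomes, and rat strains differ in their number of class I genes. CpG islands are stretches rich in CpG that often lie at gene starts and are mostly free of methylation in normal cells.

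The files pair probes with coordinates of build rn4 and with no gene names, and the gene table used here (RefSeq, assembly GRCr8) is of another build, so no run was named by gene and no sequence is shown. The table places all 67 symbols that start with RT1 on chromosome 20 and 0 elsewhere, 17 of them in the RT1-CE family and 19 in the RT1-M family. Of 79 genes listed for the complex, 78 were on chromosome 20. The RT1-CE, RT1-M and RT1-N members of that list were drawn from chromosome 20, so for them this was fixed in advance. In the order of that assembly the RT1-M genes come first, followed by the RT1-N, RT1-S and RT1-T24 genes and then by the RT1-CE genes, of which 1 pseudogene lies earlier. The class III genes from Lta and Tnf to Notch4 and C4b come next, then the class II genes with Tap, Psmb and Brd2, and then RT1-A. The label of the interval therefore rests on its place on chromosome 20. It was not checked gene by gene, and arrays of genomic DNA hold no marker expression by which to check the tissue.

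The interval was densely covered. It held 157 probes per megabase against 37 in the rest of chromosome 20, and its first probe started at 1474093 and its last at 5915988. A run held a median of 5 probes over 533.5 bases, against 6 probes over 573.5 bases in the rest of the chromosome. The longest run, 34 probes at chr20:4860785-4865613, had low enrichment. It stood at -0.27, -0.28, -0.17 and -0.13 in normal glands 1 to 4 and between -0.56 (carcinoma 10) and -0.21 (carcinoma 14) in carcinomas, with a median of -0.40. All but 1 of the carcinomas lay below every normal gland, and the difference missed the threshold (-0.21 ± 0.08, SE; limma with Benjamini-Hochberg adjustment over 13556 runs, adjusted p = 0.0546).

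Enrichment in the interval spanned low and high levels. A scale was set on each array from its unlogged ratios: 0 is the most common value of all runs (the low mode), and 1 is the most common value among the highest 15% of runs (the high mode). The place of a run on this scale is called its linear position. In the mean of all arrays, 66 of the 110 runs (60%) lay under 0.2, 28 (25.5%) between 0.2 and 0.8 and 16 (14.5%) over 0.8. In the rest of chromosome 20 the same counts were 195, 37 and 52 of 284 runs, so that 13% lay between 0.2 and 0.8, and on the whole array 18.5% did. Low and high runs lay side by side: the runs at chr20:4967406-4967867 and chr20:4969511-4970071 stood at -0.02 ± 0.09 and 5.00 ± 0.85 in normal glands (mean ± SD, n = 4).

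**Figure D1:**
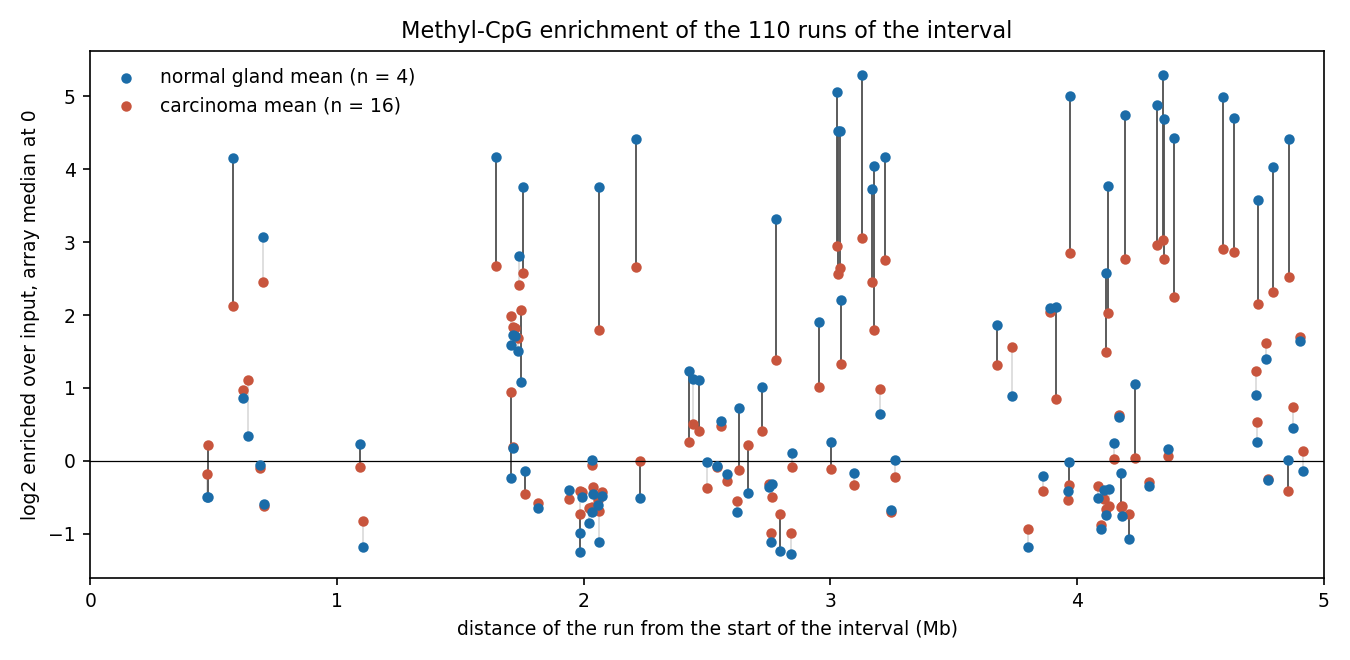
Mean log2 enrichment (vertical axis) of each of the 110 runs by its distance in megabases from the start of the interval (horizontal axis), for 4 normal glands (blue) and 16 carcinomas (red); dark lines join the means of runs called different by limma and pale lines those of the rest. Every run above 3 in normal glands has a lower mean in carcinomas, while runs near or below 0 lie closer together.

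The first comparison asked where carcinomas differ from normal glands in methyl-CpG enrichment. On the log2 scale, highly enriched runs of the interval were lower in carcinomas. With limma and Benjamini-Hochberg adjustment over all 13556 runs, 41 of the 110 runs (37.3%) had an adjusted p under 0.05 and lower values in carcinomas, where 23.7% of all runs did, and 8 (7.27%) were higher, where 11.6% were. In the rest of chromosome 20, 87 of 284 runs (30.6%) were lower and 38 (13.4%) were higher. All 16 carcinomas lay below every normal gland in 30 runs (27.3%, against 15.6% of all runs) and above every normal gland in 1 run (0.909%, against 1.76%). The median difference was -0.105 over the 110 runs, 0.023 over all runs and -0.041 over the rest of the chromosome.

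These calls depended on the scale, and the carcinoma arrays had a narrower range. The mean high mode was 4.68 ± 0.82 over the 4 normal glands and 2.72 ± 0.49 over the 16 carcinomas (log2, SD), and the groups did not overlap. On linear position, an alternative in which both modes are fixed, 25 runs of the interval (22.7%) were higher and 4 (3.64%) were lower in carcinomas, against 17.3% and 4.34% of all runs. Of the 41 runs lower on the log2 scale, 7 (17.1%) were higher and 4 (9.76%) lower in linear position, near the 16.6% and 8.33% of such runs on the whole array. Of the 8 higher runs, 4 were higher on both scales (31.6% on the whole array). After loess within each array, 24 runs were higher and 7 lower (11.2% and 7.15% of all runs). After normexp background correction 3 were higher and 31 lower (3.47% and 21.5% of all runs), and with array weights 14 and 43 were (18.8% and 26% of all runs).

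All 16 runs with a mean linear position over 0.8 were lower in carcinomas on the log2 scale, with a median difference of -1.92. In the rest of chromosome 20, 51 of 52 such runs were, with a median of -1.97, and on the whole array 97.3% were. In linear position 4 of these 16 runs (25%) were lower and 3 (18.8%) were higher. The same counts were 6 and 5 of 52 in the rest of the chromosome, and 13.3% and 23.9% on the whole array. Of the 28 runs between 0.2 and 0.8, 14 were lower and 1 higher in log2 ratio, and their median difference was -0.58, against 12 lower and 8 higher of 37 in the rest of the chromosome, with a median of -0.09. On the whole array 35% of such runs were lower and 10.9% higher. In linear position 16 of these 28 runs were higher and 0 were lower (25 and 2 of 37 in the rest). The 57.1% higher in the interval was near the 52.1% of the whole array. Among the 66 runs under 0.2, 11 (16.7%) were lower and 7 (10.6%) higher, with a median of 0.02. In the rest of the chromosome 24 and 30 of 195 were, and on the whole array 11.5% and 13.3%.

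The largest fall was at chr20:5349267-5349691, a run of 6 probes. Its enrichment was 6.72, 4.39, 5.13 and 4.92 in normal glands 1 to 4, and ran from 2.21 (carcinoma 10) through a median of 3.09 to 3.96 (carcinoma 12). The groups did not overlap, and the difference was -2.26 ± 0.33 (SE; limma adjusted p = 1.95e-05). Its linear position was lower too, from a mean of 1.55 to 1.27 (adjusted p = 0.00446), with 15 of 16 carcinomas below every normal gland. A run of 5 probes at chr20:4128666-4129084 gave nearly the same values. It stood at 6.58, 4.38, 5.26 and 4.96 in normal glands, and between 2.20 (carcinoma 7) and 4.04 (carcinoma 12) with a median of 3.16 in carcinomas. It fell by 2.25 in log2 ratio (limma adjusted p = 1.95e-05) and from 1.55 to 1.29 in linear position (adjusted p = 0.00125).

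Another 2 runs fell on both scales. At chr20:4969511-4970071 (6 probes) the enrichment was 6.19, 4.18, 4.87 and 4.78 in normal glands and 2.07 to 3.76 in carcinomas, with a median of 2.95, so the groups did not overlap. Its difference was -2.15 ± 0.30 (SE; limma adjusted p = 1.95e-05), and its linear position went from 1.26 to 1.11 (adjusted p = 0.0024), with every carcinoma below every normal gland. At chr20:4028336-4028994 (6 probes) the normal glands gave 6.33, 4.26, 4.85 and 4.78 and the carcinomas 2.16 to 3.80 with a median of 3.03, again without overlap. The difference was -2.10 ± 0.30 (SE; limma adjusted p = 1.95e-05), and its linear position went from 1.31 to 1.20 (adjusted p = 0.0253). With a run at chr20:5591607-5591953, these are the 5 runs of the interval with the highest enrichment in normal glands. That run went from 5.00 ± 0.70 (SD, n = 4) to 2.90 ± 0.55 (SD, n = 16; limma adjusted p = 1.95e-05). In linear position it missed the threshold (adjusted p = 0.26).

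The remaining large falls were of runs with a lower linear position. At chr20:4175604-4177469, a run of 13 probes over 1866 bases, the enrichment was 5.17, 3.12, 3.79 and 4.12 in normal glands. In carcinomas it ran from 1.07 (carcinoma 9) through a median of 1.78 to 3.07 (carcinoma 8). The difference was -2.26 ± 0.29 (SE; limma adjusted p = 1.45e-05), and the highest carcinoma lay just below the lowest normal gland. Its linear position was 0.64 in normal glands and 0.50 in carcinomas (adjusted p = 0.361), and carcinoma 15 stood at 1.03, above every normal gland. At chr20:5391219-5391572 (4 probes) the enrichment was 5.47, 3.76, 4.54 and 3.94 in normal glands and 1.62 to 3.01 in carcinomas, with a median of 2.26 and no overlap. That difference was -2.18 ± 0.27 (SE; limma adjusted p = 1.11e-05), while its linear position of 0.84 and 0.71 missed the threshold (adjusted p = 0.255). Of these 6 largest falls, 4 were therefore also called lower in linear position. Those 4 runs stood above the high mode in both groups, where the scale is not fixed. The part of the narrower range of the carcinoma arrays in their lower positions was not tested.

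The largest rise was at chr20:2706793-2707251, a run of 3 probes. Its enrichment was 0.32, -0.29, -0.29 and -0.68 in normal glands and ran from -0.55 (carcinoma 3) through a median of 1.11 to 2.45 (carcinoma 8). The groups overlapped, with 10 of 16 carcinomas above every normal gland, and the difference was 1.17 ± 0.41 (SE; limma adjusted p = 0.0298). Its linear position was near 0 in all normal glands and reached 0.58 in carcinoma 8 (adjusted p = 0.0635). The next, at chr20:2745088-2745442 (5 probes), gave 1.64, 1.26, 1.10 and 0.35 in normal glands and 1.39 (carcinoma 9) to 3.03 (carcinoma 12) in carcinomas, with a median of 2.05. Of the carcinomas, 13 lay above every normal gland, and the difference was 0.98 ± 0.26 (SE; limma adjusted p = 0.00514). In linear position the groups did not overlap: normal glands stood at 0.04, 0.12, 0.06 and 0.03 and carcinomas between 0.29 and 0.93 (adjusted p = 0.000326).

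Both rises lie in a stretch of 9 neighbouring runs, 38 probes over 49772 bases from 2705037 to 2754808, which was singled out after its values were seen. In linear position 7 of these 9 runs were called higher in carcinomas and 0 lower, where 17.3% and 4.34% of all runs were. Most of the 9 had a mean linear position between 0.2 and 0.8, and of such runs on the whole array 52.1% were higher. Since the stretch was singled out after its values were seen, its count is not a test. On the log2 scale 2 were higher and 1 was lower, where 11.6% and 23.7% of all runs were. Their mean linear positions ran from 0.00335 to 0.522 in normal glands and from 0.083 to 0.925 in carcinomas. At chr20:2736313-2736826 normal glands averaged 0.254 ± 0.056 (SD, n = 4) and carcinomas 0.827 ± 0.264 (SD, n = 16), with 14 carcinomas over 0.5 (limma adjusted p = 0.00584). The same run had a log2 difference of -0.39 (adjusted p = 0.374). At chr20:2705037-2705536 the means were 0.0956 and 0.588 (adjusted p = 0.00389), with 10 carcinomas over 0.5. The last run of the stretch, chr20:2754451-2754808, was lower on the log2 scale (-1.17, limma adjusted p = 0.00549) and higher in linear position, from 0.522 to 0.925 (adjusted p = 0.0181). The run at chr20:2711488-2712059 stood at 0.0159 and 0.083, and 0 carcinomas were over 0.5. Input in the stretch varied little between normal glands, with SDs from 0.0175 to 0.126. In carcinomas it ran from -1.08 (carcinoma 2) to 0.13 (carcinoma 9) at chr20:2714144-2714462. At chr20:2736313-2736826 it ran from 0.47 (carcinoma 14) to 1.62 (carcinoma 4). At the 2 rises, carcinomas minus normal glands in input was -0.201 and -0.176, against a median of -0.067 over all runs. The part of input in the enrichment of the stretch was not tested.

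The other rises were small and at low enrichment. At chr20:1474889-1475114 (3 probes) normal glands gave -1.13, -0.26, -0.11 and -0.48 and carcinomas -0.42 to 0.60 with a median of 0.15, and 14 carcinomas lay above every normal gland (difference 0.71 ± 0.17, SE; limma adjusted p = 0.00288). At chr20:3666466-3667335 (11 probes) normal glands gave -0.75, -0.35, -0.35 and -0.29 and carcinomas -0.46 to 0.79 with a median of 0.16 (difference 0.65 ± 0.17, SE; limma adjusted p = 0.00426). At chr20:3227641-3228370 (8 probes) the difference was 0.51 ± 0.14 (SE; limma adjusted p = 0.00585), with carcinomas between -0.35 and 0.57. These 3 runs were also called higher in linear position, where their carcinoma means were 0.0841, 0.0734 and 0.0493. Carcinomas minus normal glands in their input was -0.204, -0.117 and -0.218, against a median of -0.067 over all runs. The part of input in these small rises was not tested. At chr20:2985339-2986449 (9 probes) the log2 difference was 0.53 ± 0.17 (SE; limma adjusted p = 0.0211), while its linear position was -0.0136 in normal glands and -0.0198 in carcinomas (adjusted p = 0.683). Its input differed by -0.205.

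With a mean of -1.25 that run was also among the 3 lowest of the interval in normal glands. The lowest, chr20:3842189-3842632, stood at -1.50, -0.97, -1.26 and -1.38 in normal glands and -1.44 to -0.60 in carcinomas (difference 0.29, limma adjusted p = 0.0829). At chr20:3797349-3797844 the normal glands gave -1.48, -1.05, -1.20 and -1.20, and carcinomas -1.03 to -0.45. This was the 1 run of the interval in which all 16 carcinomas lay above every normal gland (difference 0.50 ± 0.12, SE; limma adjusted p = 0.00164). Its input went the other way, by -0.308. Input was -0.54, -0.46, -0.60 and -0.56 in normal glands and -1.52 (carcinoma 1) to -0.59 (carcinoma 16) in carcinomas. The part of input in this rise was not tested. The enriched signal of all its 5 probes was well above background on 0 normal arrays and on 4 carcinoma arrays, and its linear position was close to 0 in both groups (-0.0129 and -0.0246).

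Along the interval the log2 difference was not even. In windows of 1 megabase from the start of the interval on, the mean over probes differed by -0.25, 0.03, -0.20, -0.74 and -0.57 between carcinomas and normal glands. Lower calls made up 1 of 8, 4 of 18, 8 of 29, 13 of 22 and 15 of 33 runs. The shares of 12.5%, 22.2% and 27.6% in the first 3 windows were below or near the 23.7% of all runs, and the 59.1% and 45.5% of the last 2 were above it. The windows also differed in level, with means of 1.27, 0.47, 0.16, 1.46 and 1.39 in normal glands. On the whole array 97.3% of runs with a mean linear position over 0.8 were lower. The part of level in the shares of the windows was not tested. In the window from 4 to 5 megabases, normal glands stood at 1.46 ± 0.25 (SD, n = 4) and carcinomas at 0.72 ± 0.17 (SD, n = 16). The window before it stood at 0.16 ± 0.08 and -0.04 ± 0.10. In the last 2 windows the groups did not overlap, and in the second window 5 carcinomas lay below every normal gland.

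**Figure D2:**
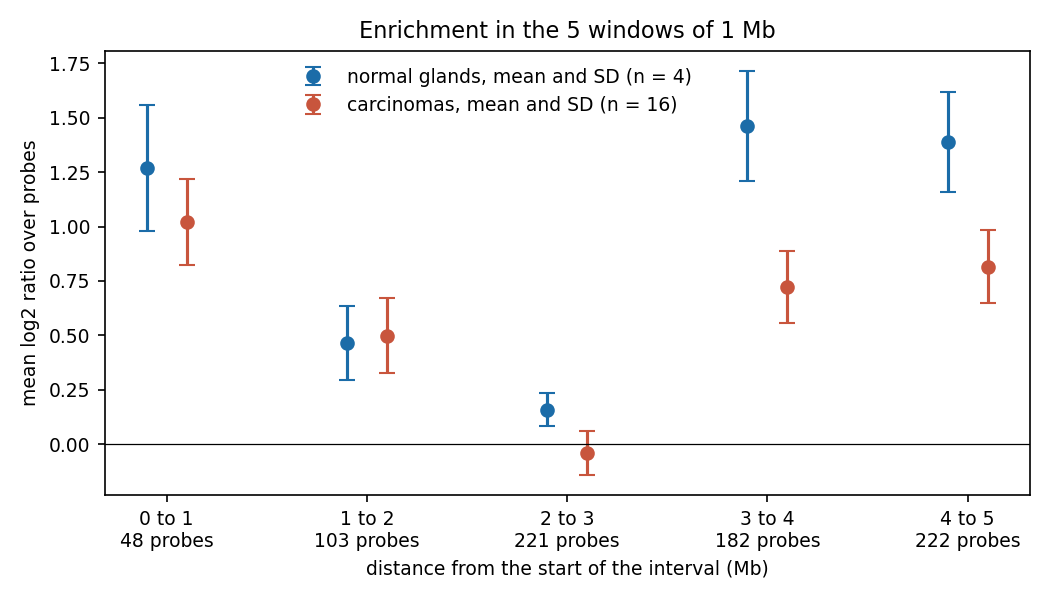
Mean log2 enrichment over the kept probes (vertical axis, mean and SD between arrays) in the 5 windows of 1 megabase, by distance from the start of the interval, for 4 normal glands (blue) and 16 carcinomas (red). The groups are farthest apart from 3 to 4 megabases into the interval, at 1.46 and 0.72, and overlap from 1 to 2 megabases, at 0.47 and 0.50.

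Averaged over its probes, the interval was lower in carcinomas on the log2 scale by more than the spread between arrays. Its mean enrichment was 1.18, 0.77, 0.87 and 0.88 in normal glands 1 to 4 and between 0.31 (carcinoma 10) and 0.72 (carcinoma 12) in carcinomas, with a median of 0.52. Every carcinoma lay below every normal gland, and the difference was -0.40 (0.93 ± 0.18 against 0.52 ± 0.12, SD; p = 0.000206, the lowest value that 4845 splits can give in a two-sided exact permutation test). Adjusted over the 6 single-value tests made here, p was 0.000619. With medians over probes in place of means the difference was -0.0723 (exact permutation p = 0.102), and after loess it was 0.0824 (exact permutation p = 0.0495). The arrays of scan day 2 alone gave -0.268 (exact permutation p = 0.0357), and those of scan day 3 gave -0.556 (exact permutation p = 0.0222), each p being the smallest that the splits of its day allow. The rest of chromosome 20 moved the same way, by -0.32 (p = 0.000206, two-sided exact permutation test).

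The interval fell further than the rest of its chromosome on the log2 scale. The difference between the interval and the rest was 0.15, 0.06, 0.08 and 0.10 in normal glands 1 to 4, and between -0.05 (carcinoma 10) and 0.07 (carcinoma 1) in carcinomas. Of the carcinomas, 15 lay below every normal gland, and the means differed by -0.086 (two-sided exact permutation test, p = 0.000413, adjusted p = 0.000826). Scan day 2 alone gave -0.034 (exact permutation p = 0.0357) and scan day 3 alone gave -0.137 (exact permutation p = 0.0222). Among probes with enriched signal above background in one whole group the value was -0.04 (exact permutation p = 0.0376), and with medians over probes -0.0634 (exact permutation p = 0.132). The direction turned on other scales. In linear position the interval gained 0.0146 more than the rest (p = 0.00351, two-sided exact permutation test), the interval itself rising by 0.0627 (p = 0.00392) and the rest by 0.0481 (p = 0.00846). After loess the interval minus the rest was 0.0284 higher in carcinomas (p = 0.124, two-sided exact permutation test), and after normexp correction the difference was -0.00144 (p = 0.928). For the inner interval, from 2 to 5 megabases, it was -0.0283 (p = 0.299, exact permutation test).

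**Figure D3:**
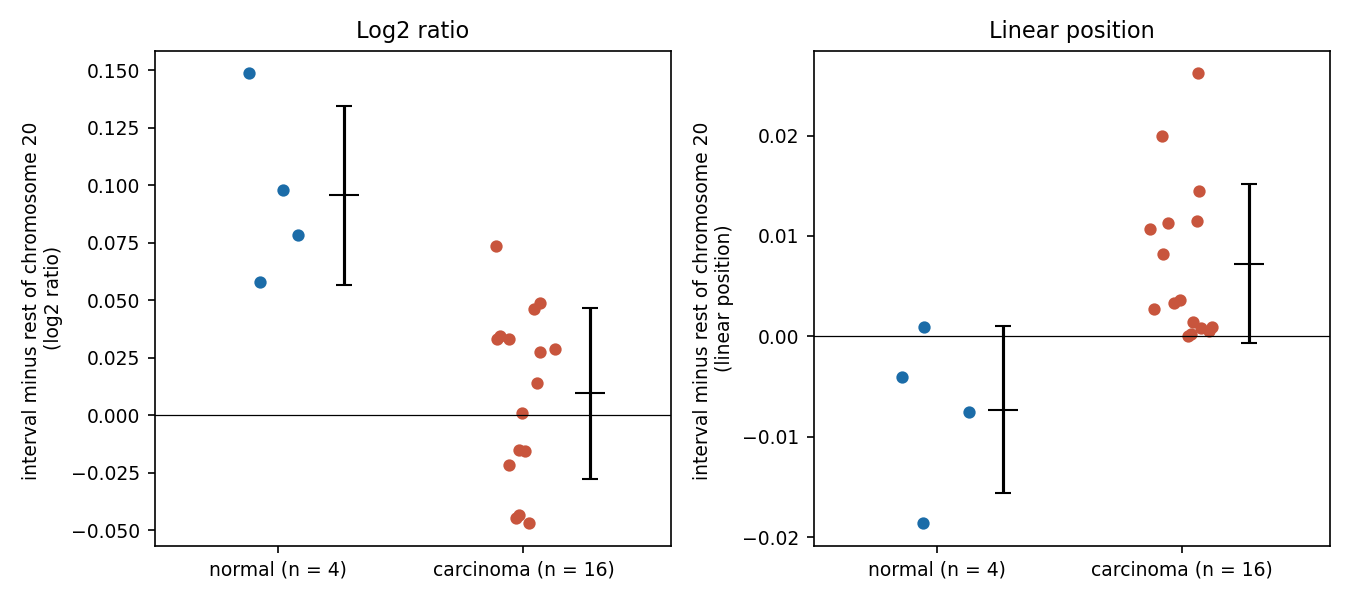
Mean of the interval minus mean of the rest of chromosome 20 on each array, for 4 normal glands (blue) and 16 carcinomas (red), as log2 ratio (left) and as linear position (right); black marks give the mean and SD. Carcinomas are lower on the left, by -0.086, and higher on the right, by 0.0146.

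Over all 20 arrays the interval was slightly more enriched than the rest of chromosome 20, by 0.027 on the log2 scale, with 14 of 20 arrays positive (two-sided sign-flip permutation test with 100000 resamples, p = 0.028, adjusted p = 0.042). Without normal gland 1 the value was 0.0204 (permutation p = 0.0544) and without normal gland 4 it was 0.023 (permutation p = 0.0522). The direction turned to -0.124 after loess and to -0.162 for the inner interval (permutation p = 1e-05 for each). Over probes with input above background on all 20 arrays the value was 0.0654 (permutation p = 3e-05). The sign of this level thus depended on the processing and on the bounds of the interval. All arrays read the same probes, so these p-values measure the spread between arrays and not between probes.

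Input DNA was measured on the same arrays, and the second comparison asked whether it differed between groups or between samples. Between groups, limma called 0 of 110 runs of the interval (0% of all 13556 runs), with 17 at an unadjusted p under 0.05 (15.5%, against 17.9% of all runs) and a smallest adjusted p of 0.237. With array weights 31 of the 110 runs were called, where 35.7% of all runs were. The largest group differences in input were not past the threshold. At chr20:5291837-5292667 input was -1.16, -1.12, -1.24 and -1.32 in normal glands and -2.19 (carcinoma 1) to -1.14 (carcinoma 9) in carcinomas. At chr20:2106634-2107035 it was -0.47, -0.37, -0.46 and -0.57 in normal glands and -1.70 (carcinoma 4) to -0.16 (carcinoma 9) in carcinomas, and at chr20:5211615-5211914 the carcinomas ran from -1.45 to -0.21. The median raw input signal of the arrays ran from 104 to 136 in normal glands and from 73 (carcinoma 4) to 129 (carcinoma 14) in carcinomas. Its part in these differences was not tested.

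The input of the interval was higher than that of the rest of the chromosome on all 20 arrays, by a mean of 0.16 (two-sided sign-flip permutation test, p = 1e-05, the smallest that 100000 resamples can give, adjusted p = 6e-05). All arrays read the same probes, so this p-value measures the spread between arrays. It cannot tell more input DNA from a fixed difference between the probes of the interval and of the rest. Carcinomas exceeded normal glands in the input of the interval minus the rest by 0.046 (0.169 ± 0.048 against 0.123 ± 0.033, SD; two-sided exact permutation test, p = 0.0927, adjusted p = 0.111). Without carcinoma 1, the lowest at 0.0645, the difference was 0.0528 (exact permutation p = 0.0276). Over probes with input above background on all 20 arrays it was 0.0208 (exact permutation p = 0.352), with medians 0.0208 (exact permutation p = 0.38) and with raw input 0.0129 (exact permutation p = 0.488). With scan day as a stratum it was 0.057 (exact permutation p = 0.0206), and on scan day 3 alone 0.0711 (exact permutation p = 0.0222).

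Between samples of one group, input differed sharply at a few runs. Of all 13556 runs, the 3 with the largest SD of input over the 4 normal glands all lay in the interval: chr20:4676615-4677155 with 1.52, chr20:4734651-4735045 with 1.31 and chr20:3554701-3555545 with 0.74. An SD over 0.5, a value set after the data were seen, was found in 4 of the 110 runs of the interval (3.64%), in 0 of 284 runs in the rest of chromosome 20 and in 0.0738% of all runs. Of single probes, 33 of 776 in the interval had such an SD (4.25%), against 7 of 1824 in the rest of the chromosome (0.384%) and 0.664% of all probes. The median run of the interval varied little, with an SD of 0.0725 against 0.0542 over all runs.

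**Figure D4:**
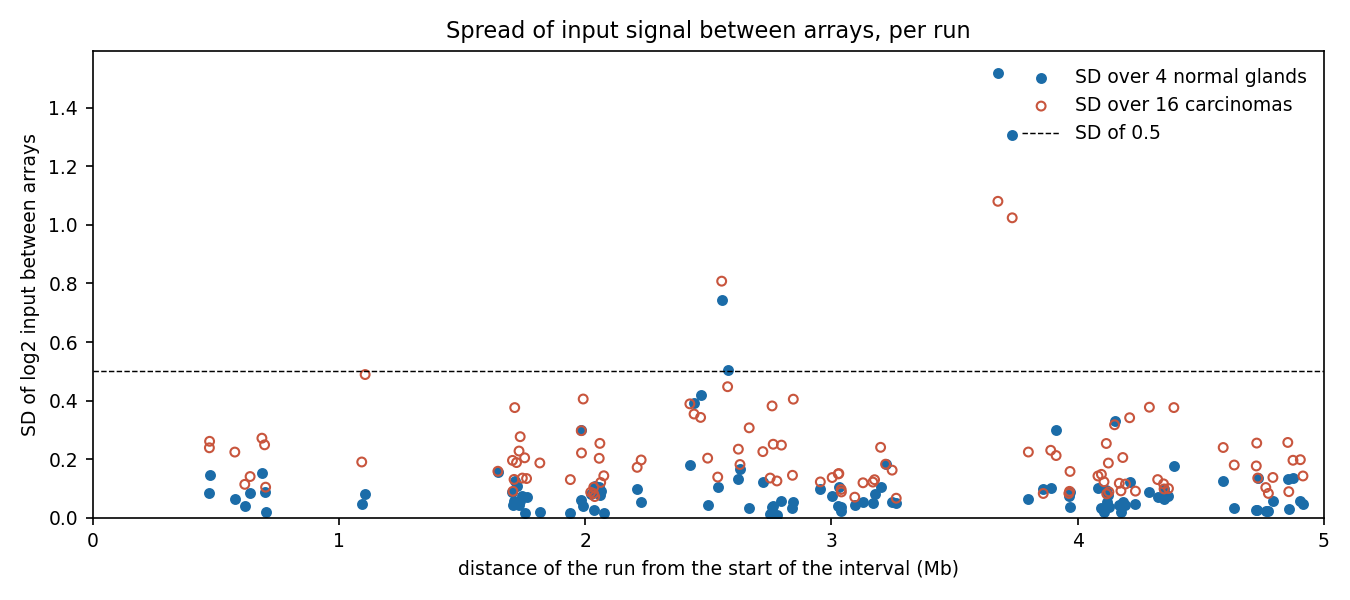
SD of log2 input between arrays (vertical axis) for each of the 110 runs, by distance from the start of the interval in megabases, over 4 normal glands (filled blue) and 16 carcinomas (open red). Most runs lie under 0.4, and 4 runs exceed an SD of 0.5 over the normal glands.

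At chr20:4676615-4677155, a run of 6 probes, input fell into separate levels. Normal glands 1 and 4 stood at -3.99 and -4.04, and normal glands 2 and 3 at -1.38 and -1.39. Among the carcinomas, 1, 7, 11 and 12 stood at -3.66, -4.38, -4.47 and -3.70, and the other 12 lay between -2.05 (carcinoma 2) and -1.43 (carcinoma 9). The 2 levels thus held samples of both groups and did not overlap. The probe at chr20:4676854-4676899 showed the widest gap, with -6.07 and -6.82 in normal glands 1 and 4 and -0.99 and -0.94 in normal glands 2 and 3. The neighbouring probe at chr20:4676615-4676659 did not show the levels in normal glands, where it stood at -0.45, -0.51, -0.42 and -0.57.

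At chr20:4734651-4735045, a run of 3 probes, the same 6 arrays had the lowest input. Normal glands gave -2.97, -0.95, -0.96 and -3.42, carcinomas 1, 7, 11 and 12 gave -3.41, -3.20, -3.72 and -3.70, and the other 12 carcinomas lay between -1.67 (carcinoma 4) and -0.99 (carcinoma 9). The same 6 arrays were again lowest at chr20:3469063-3469589 (5 probes), more than a megabase away. There they stood between -0.01 (normal gland 1) and 0.35 (carcinoma 11), and the 14 others between 0.51 (carcinoma 14) and 1.14 (carcinoma 4). These were the only 3 runs among all 13556 with this set of 6 lowest arrays, the first of which defined the set, and in 0 runs were the same 6 arrays highest. Outside the run that defined the set, 17 probes of the whole array had these 6 arrays lowest, of which 14 lay in the interval and 1 in the rest of chromosome 20. All 4 probes with these arrays highest lay in the interval.

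At chr20:3554701-3555545, a run of 5 probes, the order was different. Normal glands 1 and 4 stood at 1.42 and 1.41, carcinomas 7, 11 and 12 at 1.58, 1.70 and 1.51, and normal glands 2 and 3 at 0.09 and 0.17. Carcinoma 1 stood alone at -1.81, and the other 12 carcinomas lay between -0.17 (carcinoma 14) and 0.64 (carcinoma 4). At chr20:3578834-3579325 (5 probes) normal glands gave -0.91, -0.01, 0.02 and -0.82. There carcinomas 1, 7, 11, 12 and 14 stood between -0.94 and -0.67 and the 11 others between -0.14 and 0.24. In carcinoma 14 this rested on 1 probe, chr20:3579281-3579325, at -2.86.

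**Figure D5:**
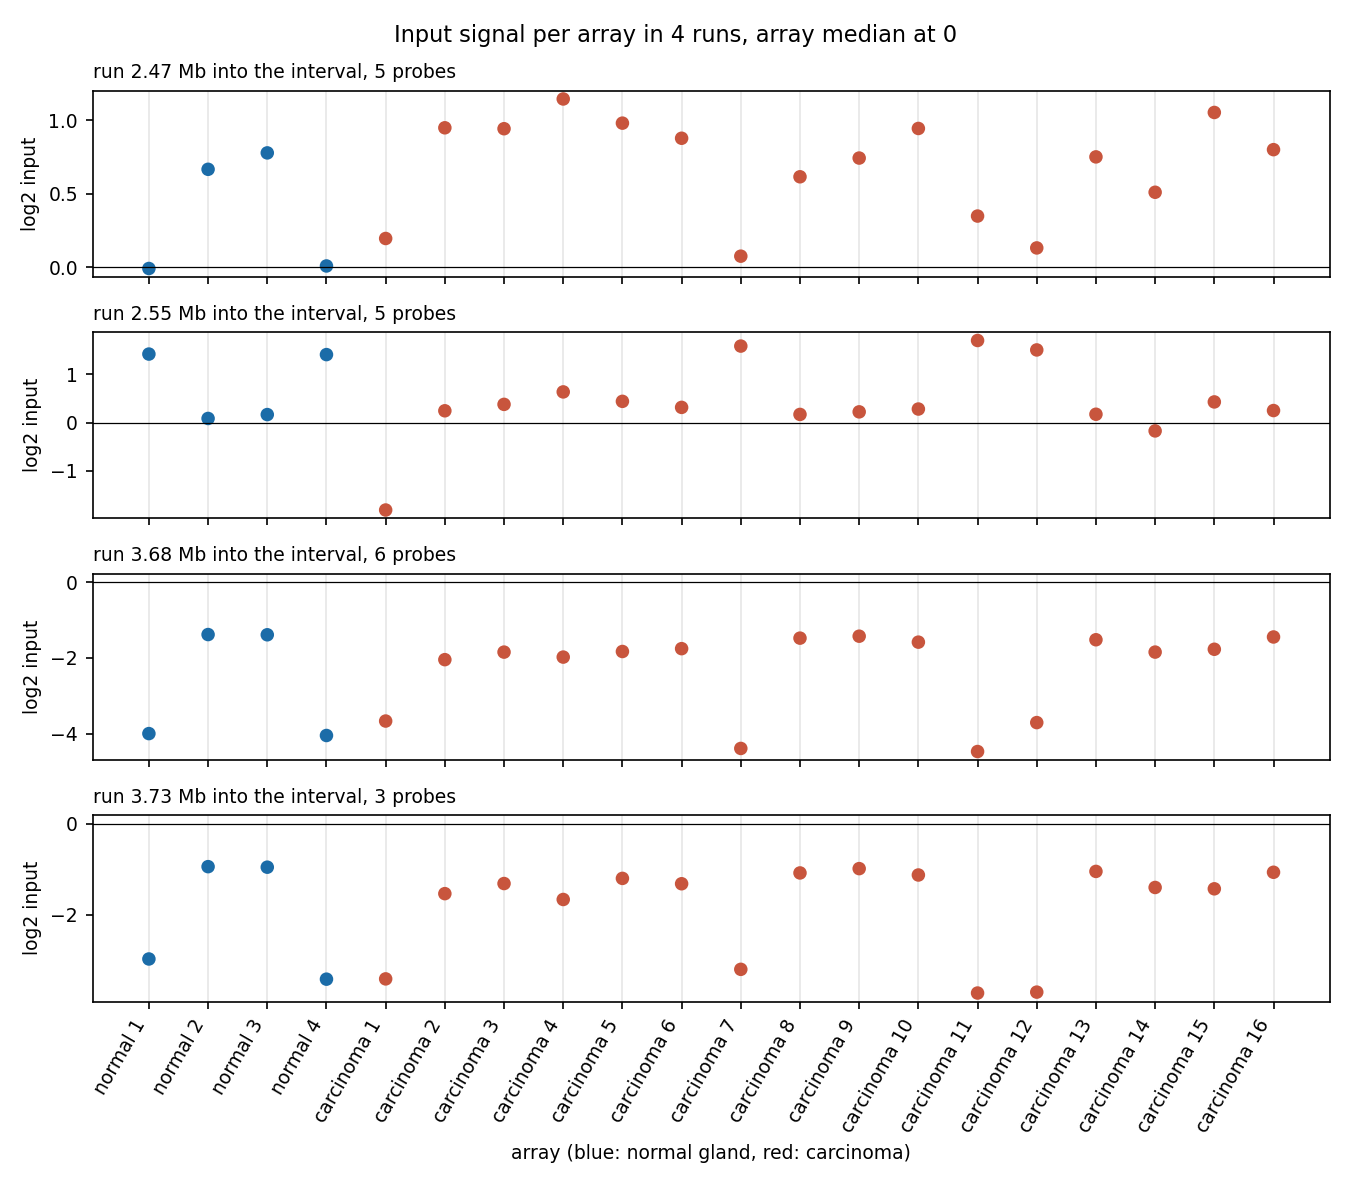
Log2 input with the median of the array at 0 (vertical axis, a scale of its own in each panel) on each of the 20 arrays (horizontal axis, normal glands blue, carcinomas red), in 4 runs of the interval. Normal glands 1 and 4 and carcinomas 1, 7, 11 and 12 are lowest in all panels but the second, and there all of them but carcinoma 1 are highest.

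Slides and scan days were set beside these levels. Normal glands 1 and 4 shared a slide and scan day 3, and normal glands 2 and 3 shared another slide and scan day 2, so within the normal glands the level cannot be told apart from slide and day. Carcinomas 1, 7, 11 and 12 lay on 4 slides and on scan days 1, 3, 2 and 3, and the second carcinoma on each of these slides (carcinomas 2, 13, 15 and 10) stood at the other level. No average or test was taken over these arrays, because the set came from the values themselves.

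The spread of input between pairs of normal glands had the same shape. It was taken over all 110 runs, the runs described above among them, so it is not independent of those runs. Over the 110 runs the SD of the difference was 0.119 between normal glands 1 and 4 and 0.073 between normal glands 2 and 3, while the other 4 pairs ran from 0.386 to 0.408. In the rest of chromosome 20 all 6 pairs lay between 0.078 and 0.125. The mean over pairs in the interval was 0.297 in normal glands and 0.328 in carcinomas (difference 0.031, two-sided exact permutation test, p = 0.652), which missed the threshold. It was 0.1 (exact permutation p = 0.0753) without the 3 runs of largest input spread and 0.0733 (exact permutation p = 0.162) over probes with input above background on all 20 arrays. In the rest of the chromosome it was 0.101 and 0.252 (difference 0.152, two-sided exact permutation test, p = 0.026). The test of the interval against the rest gave -0.121 (two-sided exact permutation test, p = 0.07).

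Where input was low, enrichment was poorly measured. At chr20:4676615-4677155 input was well above background for 3, 4, 0, 2, 1 and 2 of 6 probes in normal glands 1 and 4 and carcinomas 1, 7, 11 and 12, and for 4 to 6 probes on the other arrays. Its enrichment was 1.81, 2.08, 2.27 and 1.28 in normal glands and 1.00 to 2.02 in carcinomas, and limma called it lower (difference -0.55 ± 0.17, SE; adjusted p = 0.0161). At chr20:4734651-4735045 all 3 probes were well above background on the 14 arrays of higher input, and 3, 2, 0, 2, 2 and 2 were on the 6 others. Its enrichment was 1.32, 0.32, 0.38 and 1.55 in normal glands and 0.26 to 2.86 in carcinomas (limma adjusted p = 0.125). At chr20:3554701-3555545 enrichment was 0.64, 0.73, 0.55 and 0.30 in normal glands, with carcinoma 7 lowest at -0.17 and carcinoma 1, the array of lowest input there, highest at 1.84 (limma adjusted p = 0.832).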

How the data were processed

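Per the file headers, Agilent Feature Extraction 10.7.3.1 read the arrays, with rn4 coordinates. The deposited processed signals are intensities, background-subtracted and dye-normalized by a linear factor per channel. The deposited scanner log ratio is log10 of Cy5 over Cy3. The authors' value table holds 91897 probes as log2 ratios, equal to the scanner ratio within 7.94e-07. It was not centred (array medians from -0.48 to -0.08) and served as an alternative.

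Here log2(Cy5/Cy3) of processed signals was centred on each array's median. The 1565 control spots were left out, and 187 flagged values were set to missing, 3 of them in the interval. Input had to be well above background on 10 arrays or more, which kept 91599 probes and dropped 10 of the interval. Runs took the mean of at least 3 probes. No loess was applied, since many islands may shift one way. On the interval's probes, input was well above background for 90.5% to 100% per array and enriched signal for 73.5% to 98.2%; the number of arrays limits precision.

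The test of runs was limma 3.58.1 (R 4.3.3). It was tried on simulated data with independent noise and no effect of slide or scan day, so the trial does not cover such effects. Single values per array had exact permutation tests over 4845 splits or sign-flip tests over 100000 resamples, adjusted over 6. Linear position tests of means were added after the data were seen. Scan day 1 held 2 carcinomas, and none of 10 slides held both groups. Differences between carcinomas and normal glands therefore cannot be told apart from differences between slides. Replicate numbers were not taken to pair samples in the main tests.

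Named runs were the 6 largest rises and 6 largest falls past the threshold, the 5 highest and 3 lowest in normal glands, the 5 largest input differences and the 5 largest input SDs, and the longest run. The interval, runs and lists were chosen with earlier results of these data known. Gene lists served only for gene order in RefSeq's table. The tools were R's data.table in version 1.17.8, and Python 3.11.15 with numpy 2.4.6, pandas 2.3.3 and matplotlib 3.10.9.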

Additional observations from a re-analysis of the deposited data

Results flagged for a closer look

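In 52 sets of 4 normal glands, each set being a named run's enrichment or input or a mean of the interval, 3 held a gland far from the rest, with a gap above Dixon's critical value. Chance gives about 5% of sets. At chr20:3666466-3667335, whose enrichment rose in carcinomas, normal gland 1 stood at -0.75 and the others between -0.35 and -0.29. At chr20:3227641-3228370, also a rise, the input of normal gland 4 was -0.36 and that of the others -0.26 to -0.25. At chr20:5591607-5591953, one of the most enriched runs, the input of normal gland 4 was -0.05 and that of the others 0.19 to 0.22.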

How the results depend on the processing

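Loess within each array gave 24 higher and 7 lower runs, an interval difference of 0.0824 (exact permutation p = 0.0495), interval minus rest of 0.0284 and an enrichment level of -0.124; linear position gave 25, 4, 0.0627 and 0.0146 for the first 4. Normexp gave 3 higher runs and interval minus rest of -0.00144. Higher runs numbered 5 at an adjusted p under 0.01, 14 with array weights, 2 within scan day 3 and 5 with the replicate block. Of all runs, 4.68%, 18.8%, 2.15% and 7.89% were higher in these settings. Runs with different input numbered 0, but 31 with array weights and 55 with the replicate block, where 50.6% of all runs were called. Medians over probes gave an interval difference of -0.0723 (p = 0.102), interval minus rest of -0.0634 (p = 0.132) and a level of 0.0337 (p = 0.0601), by permutation tests. The inner interval gave interval minus rest of -0.0283 and a level of -0.162. The level was 0.0151 (permutation p = 0.191) with no filter on dim probes and 0.0178 (permutation p = 0.144) without the 3 runs of largest input spread, an alternative added after the data were seen. Input of interval minus rest differed between groups by 0.057 with scan day as a block and 0.0711 within scan day 3. Raw input turned the pairwise spread to -0.00344 (exact permutation p = 0.938).

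Same-numbered normal glands and carcinomas correlated at 0.336, -0.286, 0.102 and -0.044 in their deviations, and no normal gland matched its same-numbered carcinoma best. These values gave no sign that the numbers pair samples, but they cannot exclude it, and the labels name no animals. With the replicate block the interval difference was -0.39 and interval minus rest -0.0723, where 4 pairs allow no exact permutation p under 0.125.

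Leaving out each array in turn gave 6 to 11 higher and 34 to 43 lower runs, where 6.57% to 16.1% and 21% to 24.6% of all runs were. It gave interval differences of -0.458 to -0.318, interval minus rest of -0.0987 to -0.0685 and levels of 0.0204 to 0.0307. The input level ran from 0.154 to 0.165, its group difference from 0.0321 to 0.0551 and the pairwise spread from 0.0116 to 0.0446; input calls stayed at 0. The 4 normal glands limit every comparison, and probes with input near background limit the enrichment of the runs with low input.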
